A study of Mus musculus with 6 samples.

Results

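Surface pit cells, also called surface mucous cells, cover the stomach and line its pits. The genes described here are 8 genes linked to them: the calpain genes Capn8, Capn9 and Capn5, the surface protein genes Vsig1 and Dpcr1, the sulfotransferase gene Sult1c2, and the markers 2210407C18Rik and Phgr1. They were chosen by symbol as 8 of the 38720 rows of the deposited table, and all 8 passed the filter on low values that left 17428 genes to test. The study sequenced RNA of the neck region of the stomach corpus, cut out of unfixed frozen sections by laser capture microdissection. It compared 3 libraries of wild-type mice (CLDN18+/+) with 3 libraries of Cldn18 knockout mice (CLDN18-/-), all of strain B6:129S5 and with no treatment named. Cldn18 encodes claudin 18, a tight junction protein of the stomach. Mice were 7 weeks old by the sample labels and 7 days old by the design text. The sources do not say whether replicates are different animals, so the p-values measure the spread between these libraries, which may be technical.

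Calpains are calcium-dependent proteases that cut other proteins at a few sites inside the cell. The classical forms, calpain 1 and calpain 2, pair with a common small subunit (Capns1) and are inhibited by calpastatin (Cast), whereas calpain 8 and calpain 9 are found mainly in the digestive tract. In surface mucous cells calpain 8 and calpain 9 form a complex called G-calpain, which is known for its part in mucosal defence.

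Of the 8 genes, Capn5, Phgr1 and Vsig1 were higher in the knockout, Capn9, Dpcr1 and 2210407C18Rik were lower, and Capn8 and Sult1c2 were not called. The Vsig1 call was lost in 12 of 19 alternative analyses. A call means an adjusted p under 0.05 in limma, fitted to log2(normalized count + 1) and adjusted by Benjamini-Hochberg over all 17428 genes. The 3 higher calls stand beside 23.2% of all tested genes called higher, and the 3 lower calls beside 21.5% called lower. The knockout libraries lay entirely above the wild-type libraries for Capn5 and Phgr1 (28.1% of tested genes did so) and entirely below for Capn9, Dpcr1 and 2210407C18Rik (27.1% did so). The median log2 difference was -0.05 over the 8 genes and -0.02 over all tested genes. The plot of normalized counts by library shows 3 genes lower in every knockout library, 2 higher in every one and 3 whose libraries overlap. With wild-type replicates 2 and 3 left out, for the reason given below, 2 of the 8 genes were called higher and 4 lower.

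**Figure D1:**
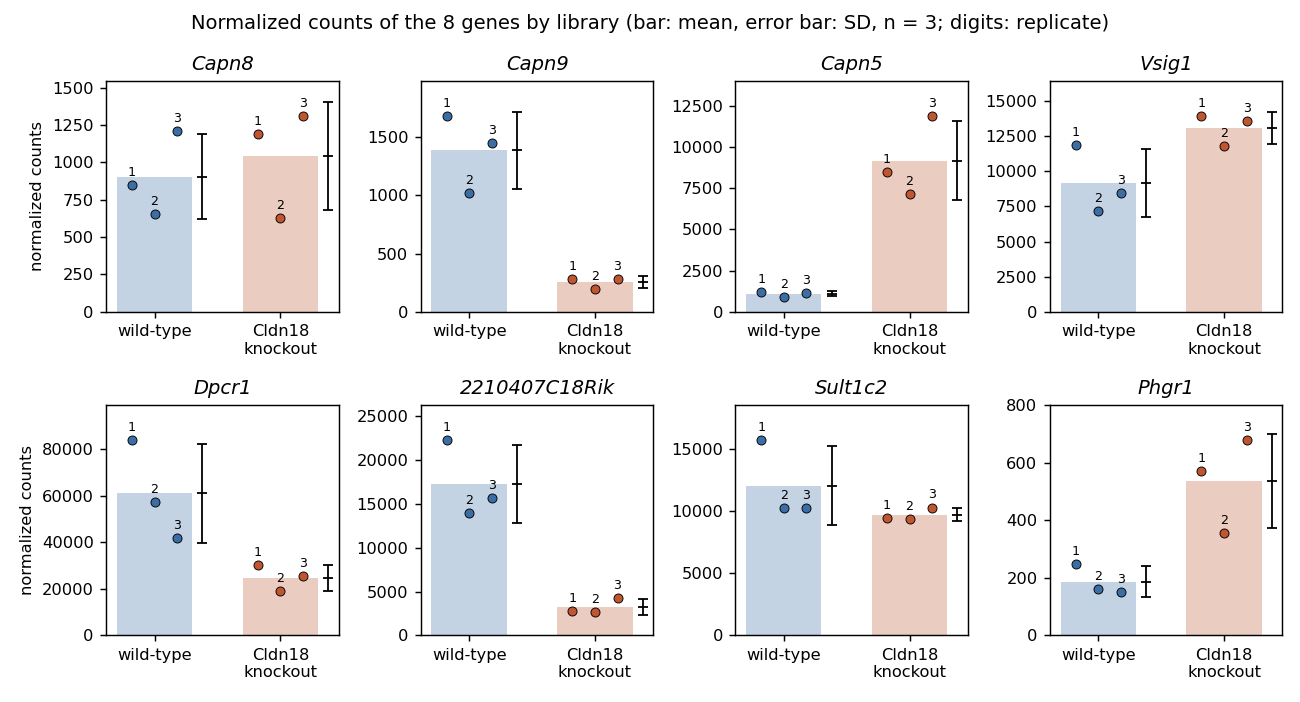
Normalized counts (y axis, linear, from 0) of the 8 genes in wild-type (blue) and Cldn18 knockout (orange) libraries: points are libraries with their replicate number, bars are means and error bars are SD (n = 3). Capn9, Dpcr1 and 2210407C18Rik lay lower in every knockout library, Capn5 and Phgr1 lay higher in every one, and the groups overlapped for Capn8, Vsig1 and Sult1c2.

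The 6 libraries held 37673283 to 52842813 reads on genes, of which the single locus Gm26924 took 38.6% to 45.4%. Cldn18 itself was still read in the knockout, at 13035.1, 16798.3 and 15818.5 normalized counts against 30497.7, 21210.1 and 23241.1 in wild-type (log2 difference -0.71 ± 0.20 (SE), limma adjusted p = 0.0134, and 0.0882 without knockout replicate 1). The counts cover the whole gene, and no source used here names the deleted part. The Cldn18 fall thus describes direction alone, where 21.5% of all tested genes were called lower. Pit cell genes were read in all 6 libraries at widely different levels, for example Tff1 at 76585 or more and Gcnt1 at 220.4 to 725.7. Other cell types moved with genotype: all 9 parietal cell markers other than Gif and all 6 chief cell markers tested were lower, their sums going from 418289–541649 to 7430–13624 and from 1815244–3011629 to 39928–74333. Gif, the intrinsic factor gene and a chief cell product in mice, stood in both lists and is counted here with the chief cells. The parietal cell proton pump gene Atp4a, for example, went from 239137–307686 to 1174.9–5217.2. All 11 cell cycle genes were higher. Mucous neck cell markers were read in both genotypes (sums of 78899–101563 and 67065–156884). The largest part of these sums was Tff2 (39381.2–63075.1 and 50051.5–133097), which was not called (limma adjusted p = 0.136). Of the 7 neck cell markers 4 were higher, among them the cystic fibrosis channel gene Cftr. Of the same markers 2 were lower, among them the mucin gene Muc6 at 27172.1–33951.3 and 6917.3–13049.7. Smooth muscle markers summed to 8751–12599 and 7963–9456 (2 of 5 lower), and immune cell markers to 205–310 and 397–531 (1 of 2 tested higher, Ly6g at 0 in all libraries). Beside the counts of each list stand 23.2% of all tested genes called higher and 21.5% called lower. Fewer cells of a type and less RNA per cell cannot be told apart in these bulk libraries, and the part of the changed cell makeup in the values below was not tested.

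Libraries also differed within a group. Wild-type replicate 1 had the highest wild-type value for 7 of the 8 genes, as it did for 46.1% of all tested genes, and knockout replicate 2 had the lowest knockout value for 8 of 8, as it did for 38.1% of all tested genes. The summed level of 16 other pit cell genes had the same extremes, at 1626170, 973377 and 1096003 in wild-type replicates 1, 2 and 3 and at 740106, 473602 and 755522 in the knockout. The 13 stratified squamous markers summed to 661 in wild-type replicate 1 but to 7415 and 2877 in replicates 2 and 3, with Krt5 at 220.3, 3219.3 and 1068.1. In the knockout that sum was 4811 to 14545 and came mostly from Sprr1a (4203.6 to 13805.9), while Krt5 was 51.9 to 76.5. Of the 10 squamous markers tested 2 were called higher and 4 lower, beside 23.2% and 21.5% of all tested genes. The 2 higher were Sprr1a and Ivl, with Ivl at 0 to 1.9 in wild-type and 282.4 to 404.6 in the knockout. Without wild-type replicates 2 and 3, Vsig1, Capn7, Capn15, Cast and Clmp lost their calls, Sult1c2 gained one, Tff1 changed sign without a call and the fold of Krt20 grew by over 1.5 times. Of the 34 genes followed through the alternatives, no other changed its call or direction there. That fit leaves 1 wild-type library, so its calls cannot measure the spread among wild-type libraries.

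Of the 2 genes of G-calpain, Capn9 fell and Capn8 was not called. Capn9 (ENSMUSG00000031981.7, chromosome 8, 124576111 to 124618731, plus strand, mm10 coordinates as for all genes here) had 1681.9, 1024.9 and 1454.6 normalized counts in wild-type libraries and 279.6, 192.8 and 284.5 in knockout libraries. The highest knockout library was far below the lowest wild-type library. The log2 difference was -2.45 ± 0.22 (SE, limma adjusted p = 1.75e-05), which left 18.2% of the wild-type mean. Capn8 (ENSMUSG00000038599.14, chromosome 1, 182565007 to 182632352, plus strand) had 845.8, 652 and 1212.8 in wild-type libraries and 1190.9, 627.2 and 1309.1 in knockout libraries. Its groups overlapped over most of their range. The log2 difference was 0.18 ± 0.29 (SE, limma adjusted p = 0.643), with a 95% interval from -0.46 to 0.83. That interval still holds changes of moderate size in both directions, so the data bound the Capn8 difference without showing it to be absent.

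The ratio of the 2 genes inside one library does not depend on the scaling between libraries. Per kilobase of exon, the ratio of Capn8 to Capn9 was 0.32, 0.41 and 0.53 in wild-type libraries and 2.73, 2.08 and 2.95 in knockout libraries. Capn9 was thus the more abundant transcript in each wild-type library and Capn8 in each knockout library. The log2 ratio of their counts differed by 2.63 between genotypes, from -0.63 ± 0.36 to 1.99 ± 0.26 (SD, n = 3 each). In the exact two-sided permutation test p was 0.1, the smallest that 3 against 3 allows, and 0.133 adjusted over the 4 gene pairs compared. Among annotated transcripts, the best matches of at least 100 bases were 82.3% identical for Capn8 (Gm37885) and 75.4% for Capn9 (Capn2). Shorter matches were left out, so sharing of reads over short stretches was not tested.

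To set the 2 genes of the complex side by side, of which only Capn9 was called, the 250 bases upstream of their starts are shown for comparison (RefSeq, GRCm38.p6, both on the plus strand, 5′ to 3′). They cover chr1:182564757-182565006 for Capn8 and chr8:124575861-124576110 for Capn9, and capitals mark a motif match.
Capn8: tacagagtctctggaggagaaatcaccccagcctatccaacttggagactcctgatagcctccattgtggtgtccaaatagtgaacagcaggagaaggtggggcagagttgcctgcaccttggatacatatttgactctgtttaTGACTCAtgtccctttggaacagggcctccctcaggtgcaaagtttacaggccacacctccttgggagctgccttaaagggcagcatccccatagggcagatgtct
Capn9: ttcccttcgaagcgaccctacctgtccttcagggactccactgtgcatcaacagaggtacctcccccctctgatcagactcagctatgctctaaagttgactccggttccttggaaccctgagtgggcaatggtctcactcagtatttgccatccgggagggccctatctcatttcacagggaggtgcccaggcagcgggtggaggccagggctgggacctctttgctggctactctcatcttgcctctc
These windows were searched on both strands for 6 motifs, spelled here with N for any base: AGATAA for factors of the GATA family, TGTTTAC for factors of the FOX family, the core promoter element TATAAA, the letters ACAAAG for factors of the SOX family, the AP-1 letters TGANTCA, and GGGCGG for factors of the SP1 and KLF family. Capn8 held 1 match, the AP-1 letters TGACTCA at 106 to 100 bases upstream, and Capn9 held none. AP-1 letters occur in 6.75% of 32851 RefSeq promoters cut to the same length, so a match is a description of this window only. The windows had a GC content of 51.6% for Capn8 and 57.2% for Capn9, beside a median of 52.4% over all promoters.

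Capn5 had the largest rise of the 8 genes. It encodes a non-classical calpain that lacks the calcium-binding EF-hand region of the classical forms. Capn5 (ENSMUSG00000035547.14, chromosome 7, 98121559 to 98178274, minus strand) had 1202, 920 and 1155.5 normalized counts in wild-type libraries and 8500.8, 7166.9 and 11869.2 in knockout libraries. Every knockout library was several times above every wild-type library. The log2 difference was 3.05 ± 0.19 (SE, limma adjusted p = 1.59e-06), an 8.40-fold higher mean. Omp, a gene for an olfactory neuron protein, lies inside Capn5 on the same strand without sharing exon bases, and it rose too, from 68.5, 30.9 and 72.8 to 1166.4, 514.9 and 1106.3 (a 16.2-fold higher mean, limma adjusted p = 2.48e-05). How reads of Capn5 introns or unannotated exons bear on Omp was not tested.

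Within one library Capn5 shifted against both G-calpain genes. Per kilobase, the ratio of Capn5 to Capn9 was 0.31, 0.4 and 0.35 in wild-type libraries and 13.38, 16.36 and 18.36 in knockout libraries. The ratio of Capn5 to Capn8 was 0.98, 0.97 and 0.65 in wild-type libraries and 4.91, 7.85 and 6.23 in knockout libraries. The genotypes differed by 5.49 and 2.86 in these log2 ratios (exact two-sided permutation p = 0.1 and 0.133 adjusted, for each). In wild-type replicates 1 and 2 Capn5 and Capn8 had nearly the same level per kilobase, while in each knockout library Capn5 was well above both genes.

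**Figure D2:**
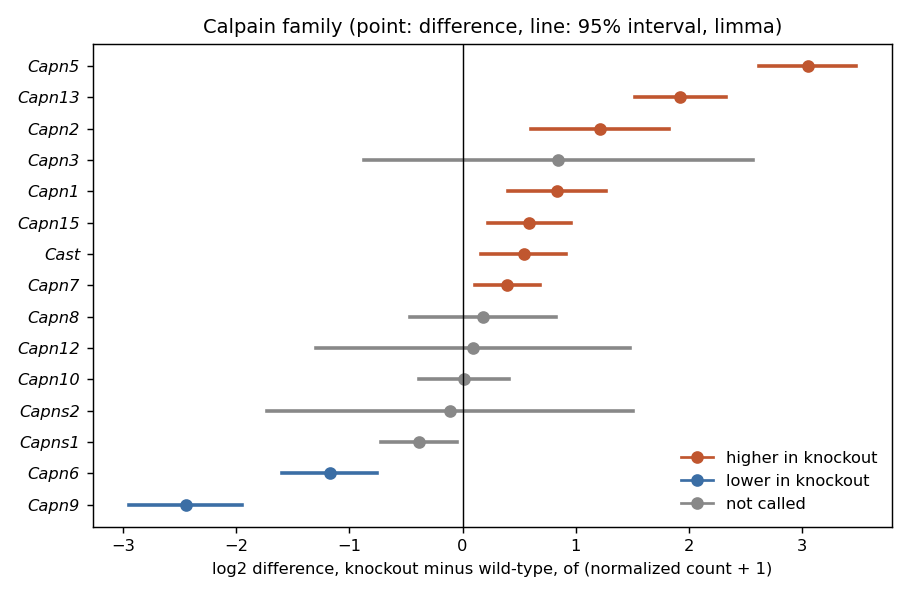
Log2 difference between knockout and wild-type (x axis, limma estimate, bars are 95% intervals) for the tested genes of the calpain family list, Cast included. Called genes are coloured. Capn9 and Capn6 are the called genes to the left of 0, Capn5 and Capn13 lie farthest to the right, and the Capn8 interval crosses 0. The Capns1 interval (-0.72 to -0.05) also lies left of 0, although Capns1 was not called.

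Of 16 genes in the calpain family list 15 could be tested, and 7 were higher, 2 lower and 6 not called. Their median log2 difference was 0.40. The list also holds the small subunit genes Capns1 and Capns2 and the inhibitor gene Cast, which is 1 of the 7 higher. Over all tested genes 23.2% were called higher and 21.5% lower. Without the 3 calpains described above, 6 of 12 were higher, Cast among them, and 1 was lower. Capn13, another calpain large subunit gene, rose from 642.6, 465.5 and 469 to 1849.2, 1734.6 and 2394.2 (log2 difference 1.92 ± 0.18 (SE), limma adjusted p = 2.15e-05). The classical large subunit genes were higher as well, with Capn2 at a log2 difference of 1.21 ± 0.28 (adjusted p = 0.00475) and Capn1 at 0.83 ± 0.20 (adjusted p = 0.00580). Their wild-type values were 1570.5, 3257.6 and 1895.4 for Capn2 and 2148.2, 3289.7 and 2202.2 for Capn1, with replicate 2 highest for both, as for the squamous markers. Without wild-type replicates 2 and 3, which leaves 1 wild-type library, the log2 differences were 1.66 for Capn2 and 1.05 for Capn1.

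Capn6, whose product lacks the active-site cysteine of the proteases, fell from 1171.4, 806.4 and 775.8 to 366.4, 421.1 and 411.4 (log2 difference -1.17 ± 0.19 (SE), limma adjusted p = 6.44e-04). Capn15, Capn7 and the inhibitor gene Cast were called higher by small amounts (0.59, 0.40 and 0.54 on the log2 scale), and their calls were lost in 4, 11 and 6 of 19 alternative analyses. The small subunit gene Capns1 had 7938.1, 9131.9 and 7214.6 in wild-type libraries and 5932.9, 5749.2 and 6899.1 in knockout libraries. It was not called (log2 difference -0.38 ± 0.15 (SE), limma adjusted p = 0.0594), although 5 alternatives called it lower, with adjusted p = 0.0492 in edgeR and 0.0169 in DESeq2.

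The share of each gene in the summed level per kilobase of 13 calpain large subunit genes describes the makeup of the family within a library. Capn9 made up 22.6%, 13.5% and 20.7% of it in wild-type libraries, against 2.10%, 1.74% and 1.71% in knockout libraries. Capn5 went the other way, from 7.12%, 5.34% and 7.25% to 28.1%, 28.5% and 31.3%. Capn13 rose from 5.86% ± 1.08 to 12.0% ± 0.76 (SD, n = 3), with no overlap of libraries. Capn8 had 7.95% ± 2.84 in wild-type libraries and 4.79% ± 1.06 in knockout libraries, and its libraries overlapped. Capn1 had 25.0% ± 5.6 in wild-type and 23.8% ± 0.49 in the knockout. These shares rest on a sum that itself was larger in the knockout, at 4587.6 to 6913.1 per kilobase against 2906.5 to 3141.5. The largest share was that of Capn5 in each knockout library, and that of Capn9 or Capn1 in each wild-type library.

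**Figure D3:**
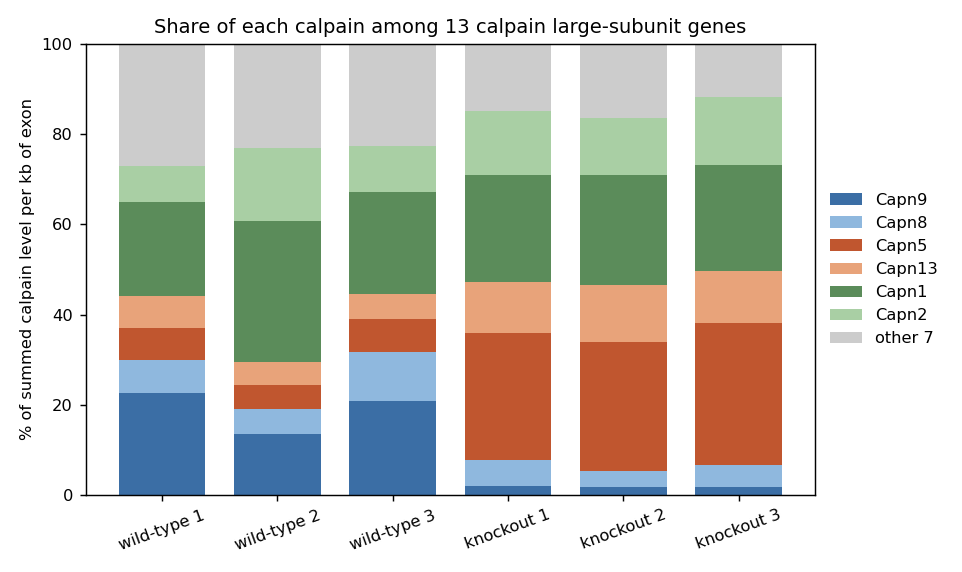
Share of each gene (y axis, percent) in the summed normalized counts per kilobase of exon of 13 calpain large subunit genes, with 1 stacked bar per library. Capn9 goes from 13.5% or more in wild-type to 2.10% or less in the knockout, and Capn5 from 7.25% or less to 28.1% or more.

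Vsig1 and Dpcr1 encode surface proteins of the gastric epithelium and went in opposite directions. Vsig1, an immunoglobulin-type junction protein of the stomach (ENSMUSG00000031430.8, chromosome X, 140907608 to 140939472, plus strand), had 11863.7, 7188.2 and 8489.5 in wild-type libraries and 13934.2, 11818.9 and 13572.3 in knockout libraries. Knockout replicate 2 lay just under wild-type replicate 1, so the groups overlapped. The log2 difference was 0.54 ± 0.20 (SE, limma adjusted p = 0.0432), a call at the edge of the threshold. It was lost in 12 of 19 alternatives, with an adjusted p of up to 0.575 when wild-type replicates 2 and 3 were left out (log2 difference 0.14). In the authors' deposited table the adjusted p of Vsig1 was 0.0792.

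Of 13 genes in the junctional immunoglobulin family of Vsig1, itself included, 5 were higher, 2 lower and 6 not called. Their median log2 difference was 0.19, and 23.2% of all tested genes were called higher and 21.5% lower. Gpa33, which encodes the A33 antigen of the intestinal epithelium, rose the most, from 71, 77.8 and 108.8 to 2626.5, 1836.6 and 2500.9, a 27.0-fold higher mean (log2 difference 4.75 ± 0.22 (SE), limma adjusted p = 1.87e-07). Cxadr, the coxsackie and adenovirus receptor gene, rose from 4521.7, 3366.3 and 3815.1 to 5837.5, 7244.4 and 6589.6 (0.75 ± 0.16, adjusted p = 0.00270). Vsig10 and Clmp rose by 0.92 ± 0.18 and 0.91 ± 0.22 (adjusted p = 0.00178 and 0.00728). Without wild-type replicates 2 and 3 Clmp was at 0.68 and not called (limma adjusted p = 0.0919). Esam, an endothelial adhesion molecule gene, fell by 0.92 and Jam3 by 1.16 (adjusted p = 0.00476 and 0.00495). Vsig2 was not called, at 0.15.

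Dpcr1, named Mucl3 in the annotation, encodes a mucin-like protein and had the highest level per kilobase of the 8 genes in both genotypes. Dpcr1 (ENSMUSG00000073408.2, chromosome 17, 35635752 to 35643695, minus strand) had 83859.8, 57288.1 and 41978.7 in wild-type libraries and 30046.2, 18995.4 and 25401.1 in knockout libraries. The wild-type libraries spread widely, but none reached down to the knockout libraries. This was a log2 difference of -1.27 ± 0.29 (SE, limma adjusted p = 0.00461), a 2.46-fold lower mean. Sfta2 overlaps Dpcr1 on the other strand with no shared exon bases. It had far fewer counts, at 63.1 to 242.4 in wild-type and 16.1 to 52.9 in the knockout. Sfta2 was called lower as well (log2 difference -1.80 ± 0.56 (SE), limma adjusted p = 0.0238). How reads of Dpcr1 bear on Sfta2 was not tested.

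2210407C18Rik fell about as much as Capn9. The gene (ENSMUSG00000037145.14, chromosome 11, 58608204 to 58616075, minus strand) had 22316, 13945.4 and 15662.4 in wild-type libraries and 2753, 2636.7 and 4291.5 in knockout libraries. The 3 knockout libraries were all far below the wild-type libraries. The log2 difference was -2.43 ± 0.23 (SE, limma adjusted p = 1.94e-05), a 5.36-fold lower mean. Of the other 7 genes Capn9 had the profile most like it over the 6 libraries, with a root mean square difference of 0.21 between their log2 profiles, each centred on its own mean.

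The 250 bases upstream of the 2 other genes that fell are shown beside those of Capn9 above, since all 3 were called lower (RefSeq, GRCm38.p6, minus strand, 5′ to 3′). They cover chr17:35643696-35643945 for Dpcr1 and chr11:58613493-58613742 for 2210407C18Rik, whose RefSeq start lies inside the span of the gene given above.
Dpcr1: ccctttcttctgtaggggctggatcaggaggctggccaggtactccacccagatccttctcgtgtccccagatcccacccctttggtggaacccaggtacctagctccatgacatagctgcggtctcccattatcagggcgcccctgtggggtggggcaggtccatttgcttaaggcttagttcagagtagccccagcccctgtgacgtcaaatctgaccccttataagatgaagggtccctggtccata
2210407C18Rik: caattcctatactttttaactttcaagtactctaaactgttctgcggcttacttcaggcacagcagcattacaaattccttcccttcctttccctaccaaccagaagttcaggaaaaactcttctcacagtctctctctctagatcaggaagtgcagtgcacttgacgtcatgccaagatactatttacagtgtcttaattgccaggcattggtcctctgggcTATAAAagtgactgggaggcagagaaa
The same 6 motifs were searched. The 2210407C18Rik window held TATAAA at 27 to 22 bases upstream, in capitals, letters found in 12.4% of promoters, and the Dpcr1 window held none of the 6. No motif among those searched was shared by the 3 windows. Their GC content was 57.2% for both Capn9 and Dpcr1 and 43.2% for 2210407C18Rik.

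Sult1c2 encodes a cytosolic sulfotransferase, an enzyme that moves a sulfate group from a donor made by Papss1 and Papss2 onto small molecules. Sult1c2 (ENSMUSG00000023122.6, chromosome 17, 53829637 to 53846339, minus strand) had 15728.1, 10235.8 and 10217.9 in wild-type libraries and 9476.4, 9362.5 and 10289 in knockout libraries. Wild-type replicate 1 stood above the other 5 libraries, which lay close together. This gave a log2 difference of -0.28 ± 0.19 (SE, limma adjusted p = 0.251), with a 95% interval from -0.70 to 0.14. It was called lower under quantile normalization (-0.49, adjusted p = 0.0301) and with wild-type replicates 2 and 3 left out, which sets wild-type replicate 1 alone against the knockout (-0.70, adjusted p = 0.00997). The pseudogenes Sult1c2-ps2 and Sult1c2-ps1 match it at 93.9% over 277 bases and 85.8% over 120 bases, so a part of its reads may not be unique to it.

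In the sulfotransferase list 1 gene was called, where 23.2% of all tested genes were called higher and 21.5% lower. Of 14 genes in that list, with Papss1, Papss2 and Sult1c2 among them, 8 could be tested, 0 were higher, 1 was lower and 7 were not called (median log2 difference -0.25). The 1 that fell was Sult1a1, from 139.5, 200 and 190.3 to 49.1, 45.1 and 27.9 (log2 difference -2.11 ± 0.33 (SE), limma adjusted p = 5.49e-04). Sult1c1, the relative tested as a pair with Sult1c2, had at most 7.4 normalized counts in any library and did not pass the filter. The log2 ratio of the pair differed by 0.35 between genotypes (exact two-sided permutation p = 0.8), a value set by a handful of Sult1c1 reads.

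Phgr1 encodes a short protein rich in proline, histidine and glycine that is known from the intestinal epithelium. Phgr1 (ENSMUSG00000046804.13, chromosome 2, 118772769 to 118778165, plus strand) had 247.3, 160.5 and 149.5 in wild-type libraries and 572.3, 356.8 and 678.6 in knockout libraries. All 3 knockout libraries lay above all wild-type libraries. Its mean log2 difference was 1.51 ± 0.28 (SE, limma adjusted p = 0.00148), a 2.88-fold higher mean.

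Intestinal epithelium markers moved with Phgr1 only in part. Of 14 listed, 11 could be tested, and 5 were higher and 2 lower, beside 23.2% and 21.5% of all tested genes. The sum of the 14 was 4530 to 6816 in wild-type and 22006 to 44633 in the knockout. Krt20 and Gpa33 of this list also stand in the lists of pit cell genes and of Vsig1 relatives. Most of that sum came from Lgals4, with 3311.9 to 5277 in wild-type and 11598.1 to 26130.6 in the knockout, and from Vil1 and Krt20. The gut-defining factor genes were at or near 0 in all libraries, with Cdx1 at 0 to 1.2 and Cdx2 at 0 to 20.4. Fabp1, a fatty acid binding protein gene of enterocytes, was 143.2 to 301.1 in wild-type and 4.7 to 9.6 in the knockout.

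Other pit cell genes also went in both directions. Of 17 listed, 16 could be tested, and 7 were higher, 5 lower and 4 not called (median log2 difference 0.25). The shares over all tested genes were 23.2% higher and 21.5% lower. Krt20, a keratin gene of mature surface cells, rose from 132.2, 318.6 and 321.4 to 4985.7, 4698.6 and 11219.4 (log2 difference 4.74 ± 0.38 (SE), limma adjusted p = 7.59e-06, and 5.59 without wild-type replicates 2 and 3). Psca, a surface antigen gene, fell by 2.84 ± 0.32 on the log2 scale (adjusted p = 5.83e-05), from 112926 or more to 27966 or less. Lower calls were also made for Cyp2s1 (-1.73 ± 0.18), Aldh3a1 (-1.60 ± 0.28) and the secreted gastrokine gene Gkn1 (-1.62 ± 0.44, adjusted p = 0.0127). The Gkn1 call was lost in 4 alternatives, namely quantile normalization (-0.42, adjusted p = 0.102), the replicate block (0.0803) and the analyses without knockout replicate 1 (0.0582) or 2 (0.0956). Gkn2 fell by 1.25 ± 0.47 (adjusted p = 0.0494), a call lost in 8 alternatives. Gcnt1, which encodes an enzyme that branches mucin sugar chains, rose by 1.48 ± 0.17 (adjusted p = 7.60e-05). The remaining higher calls were Anxa10 (1.39 ± 0.23), Tspan8 (0.94 ± 0.19), Foxq1 (0.85 ± 0.15), Muc1 (0.76 ± 0.19) and Agr2 (0.60 ± 0.18). Their limma adjusted p was 0.0175 or less, and they were not followed through the alternatives.

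Muc5ac and Tff1, which encode secreted products of pit cells, were not called. Muc5ac, the main surface mucin gene, had 131399, 71230 and 90091 in wild-type libraries and 86918, 34801 and 77389 in knockout libraries (log2 difference -0.62 ± 0.39 (SE), limma adjusted p = 0.226). Tff1, a trefoil peptide gene, had 126705, 79244 and 84097 in wild-type libraries and 132436, 76585 and 127784 in knockout libraries (0.21 ± 0.34, adjusted p = 0.658). Under quantile normalization Tff1 was called higher (0.99, limma adjusted p = 0.00221). Both spread widely within each genotype, with knockout replicate 2 the lowest library for each.

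Per kilobase of exon the 8 genes could be ordered by level within each genotype. In wild-type the order was Dpcr1 (23379 ± 8116), 2210407C18Rik (12372 ± 3160), Sult1c2 (6533 ± 1721), Vsig1 (3317 ± 872), Capn9 (575 ± 138), Phgr1 (340 ± 97.9), Capn8 (240 ± 75.5) and Capn5 (199 ± 27.6; SD, n = 3 for each). The libraries of neighbours overlapped from Capn9 downwards, and those 4 genes are not separated by their spread from the next in line. In the knockout the order was Dpcr1 (9504 ± 2125), Sult1c2 (5260 ± 274), Vsig1 (4736 ± 409), 2210407C18Rik (2307 ± 660), Capn5 (1673 ± 442), Phgr1 (980 ± 299.7), Capn8 (277 ± 96.7) and Capn9 (104.5 ± 21.4). Only 2210407C18Rik and Capn5 overlapped as neighbours there. Capn9 went from the most to the least abundant of the 3 calpains, and 2210407C18Rik from second place to a level that overlapped Capn5.

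For each gene the pattern over the 6 libraries was compared with that of 12403 tested genes whose mean reached 100 in 1 genotype or both. Likeness was the root mean square difference between log2 profiles, each centred on its own mean, so it includes the genotype difference and is a description over 6 points. Capn9 was nearest to Pfkfb3, a regulator of glycolysis (0.15), which had 2091.9, 1667.1 and 1711.9 in wild-type libraries and 340.9, 243.8 and 377.7 in knockout libraries, followed by Ugt1a7c (0.17). Capn5 was nearest to the calcium-binding protein gene S100a6 (0.088), with 5291.7, 3898.5 and 4768.6 in wild-type libraries and 41010.1, 28522.7 and 52596.6 in knockout libraries, and to Oasl1 (0.093). Both genes of each pair kept the order of libraries within the knockout, with replicate 2 lowest.

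The remaining genes had these neighbours. Capn8 was nearest to 9930012K11Rik (0.17) and Rccd1 (0.19), both low, with 74.1 to 192.2 normalized counts over all libraries. Vsig1 was nearest to Sh3gl2 (0.055) and Zbtb7a (0.062), and Sult1c2 to Fam101b (0.039) and Elmod3 (0.049). Dpcr1 was nearest to Enpp2, the gene of the enzyme autotaxin (0.10), and to Rnf208 (0.16). Nearest to 2210407C18Rik were the cell cycle inhibitor gene Cdkn2b (0.13) and the processed pseudogene Gm6166 (0.13), and nearest to Phgr1 were 2200002D01Rik (0.053) and Prkcdbp (0.11). None of the 8 genes had another of the 8 among its 2 nearest.

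**Figure D4:**
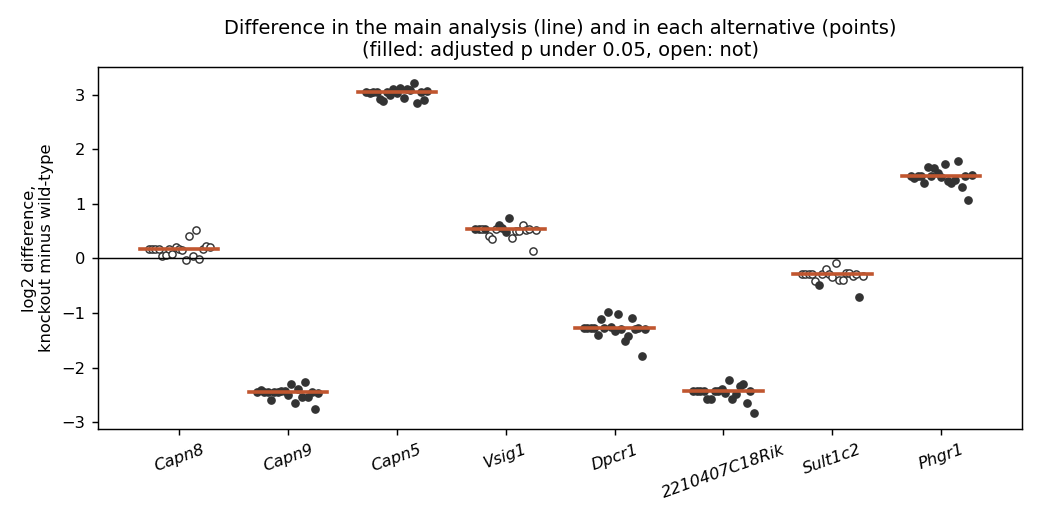
Log2 difference between knockout and wild-type (y axis) of each of the 8 genes (x axis) in the main limma analysis (line) and in each alternative (points, filled where called). Capn9, 2210407C18Rik, Dpcr1, Phgr1 and Capn5 were called in every one, whereas Vsig1 lost its call in 12 of 19 and Capn8 lies on both sides of 0.

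The 5 genes with groups that did not overlap kept their calls in all alternatives that gave a value. The log2 difference ranged from -2.75 to -2.26 for Capn9, from 2.85 to 3.21 for Capn5, from -1.78 to -0.99 for Dpcr1 and from 1.06 to 1.78 for Phgr1 over 19 alternatives. For 2210407C18Rik it ranged from -2.83 to -2.23 over 18, and no value of it was used from the authors' deposited table. That table gave adjusted p-values of 6.57e-10 for Capn9, 1.1e-10 for Capn5, 0.0261 for Dpcr1, 0.00280 for Phgr1, 1 for Capn8 and 0.631 for Sult1c2. The plot of the alternatives shows Dpcr1 with the widest spread of the 5.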

How the data were processed

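The authors deposited a signal, normalized counts of 6 libraries in 38720 rows. Their deposited comparison of 23086 genes, used as an alternative, holds group means, p-values and the ratio of the means (fold change). Per the submitters' processing notes they used STAR, featureCounts, DESeq and mm10. No source used here gives versions, annotation or strand setting. Values were whole multiples of 1 read within 0.05, so reads were recovered for edgeR 4.0.16 and DESeq2 1.42.0.

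The main test was limma 3.58.1 (R 4.3.3; lmFit, eBayes with trend, two-sided) on log2(normalized count + 1), which understates changes of low genes, for 17428 genes with at least 10 in at least 3 of 6 libraries. It was also run on simulated data. Those held far fewer changed genes than were called here and cannot give its error rate for these data. A date stands where the symbol should be in 27 rows, and 4 rows that share a symbol were dropped. GENCODE vM21 matched 96.4% of symbols and gave coordinates and exon lengths; RefSeq matched 7 of 8 genes to a promoter. Named were the 8 genes, Cldn18, called family members with Capns1 and Cast, up to 6 called pit cell genes with Muc5ac, Tff1, Gkn1 and Gkn2, summed levels and leading genes of other cell type lists, and the 2 nearest patterns per gene. Omp, Sfta2, Vsig2, the Cdx genes, Ivl and the pit cell genes Anxa10, Tspan8, Foxq1, Muc1 and Agr2 were added after their values were seen. Cftr, Fabp1, Gif and Ly6g were named too, although they do not lead their lists by mean level. The 8 genes and all lists were chosen with earlier results of these data known.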

Additional observations from a re-analysis of the deposited data

How the results depend on the processing

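Across 19 alternatives 2 to 3 of the 8 genes were called higher and 2 to 4 lower. The 2 lower calls come from the authors' deposited table, which was not used for 2210407C18Rik. Leaving out wild-type replicates 2 and 3, an alternative chosen after seeing the data, gave 2 higher and 4 lower; the lone wild-type library is then assumed to vary like the knockout ones. Over all genes, 2915 to 4650 were called higher and 2017 to 4502 lower, against 4051 and 3740. The authors' deposited table gave the 2017, and the cause was not tested.

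For 34 named genes there were 645 values, of which 586 had the same direction and call, 47 lost the call, 8 gained one and 4 changed sign. Those 4 had not been called: Capn8 without wild-type replicate 2 (-0.03) and without knockout replicate 3 (-0.02; range -0.029 to 0.51 over libraries left out), Muc5ac under quantile normalization (0.017) and Tff1 with wild-type replicates 2 and 3 left out (-0.22). The log2 ratio of Sult1c2 to Sult1c1 ranged from -0.26 to 1.27 with 1 library left out.

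Samples with the same replicate number did not deviate together (correlations of -0.0036, 0.0214 and -0.1729). With the replicate number as a block, 3725 genes were higher and 3625 lower, and of the 8 genes 2 were higher and 3 lower, with Vsig1 at adjusted p = 0.0526 (limma).

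The median log2 difference of all genes was -0.02, but -0.15 under upper quartile scaling and 0.10 under quantile normalization. With 3 libraries a group, exact tests of single ratios cannot go below p = 0.1.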
